A study of Mus musculus with 12 samples.

Results

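Heterotrimeric G proteins carry signals from membrane receptors into the cell, and each consists of an alpha, a beta and a gamma subunit. The gamma subunits are small proteins that bind a beta subunit tightly and hold it at the membrane through a lipid attached to their C terminus. When a receptor is activated, the beta-gamma pair acts on its own targets, among them potassium channels, calcium channels, adenylyl cyclases and phospholipases. In cerebellar neurons such pairs act behind metabotropic glutamate and GABA receptors, and the gamma subunit present helps to set which receptors and effectors a pair works with.

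The genes described here are the 10 G protein gamma subunits Gng2, Gng3, Gng4, Gng5, Gng7, Gng8, Gng10, Gng11, Gng12 and Gng13, out of 22180 genes measured. They were taken by gene symbol from the array annotation, using rows that name 1 gene and, where a gene had several such rows, the brightest. That gave values for 9 of the 10. Gng13 lay only on 2 rows shared with Chtf18 and was not analysed as a gene. Those rows, which cannot be assigned to either gene, averaged 8.35 and 6.49 in log2 intensity. Their knockout minus wild-type differences were 0.10 (SE 0.07) and 0.04 (SE 0.06). The family was selected on the genotype difference of Gng3 in earlier results of these data. The genotype differences of Gng3 are therefore given as a description, with no test.

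RNA of whole cerebellum was hybridised to 12 Affymetrix arrays, 1 for each mouse. The groups were 3 males (KO_male) and 3 females (KO_female) lacking Ciz1, labelled Ciz1-/-, and 3 males (WT_male) and 3 females (WT_female) called wild type in the source names. For the controls the genotype field reads Ciz1+/- while the extraction protocol gives Ciz1+/+, and the mice were 10 months old by the protocol and 6 to 10 months by the series design. The labels name neither the strain nor how the Ciz1 allele was made. The series title speaks of germline deficiency, so the loss was not limited to a cell type. Ciz1, a nuclear protein of DNA replication and X inactivation on chromosome 2, was at 6.82 to 7.31 in the 6 knockout arrays and 8.70 to 8.90 in the 6 wild-type arrays (log2 intensity). No gene of the family lies on that chromosome. The knockout mean of Ciz1, 7.13, was still above the background defined below, and what that remaining signal reads was not tested. All 13 granule cell markers and all 8 Purkinje cell markers with a row were brighter than the background defined below, as the label cerebellum calls for. Choroid plexus markers varied most between arrays, over 1.46 log2 units, and inside every group. In whole tissue, fewer cells of a type and less RNA per cell cannot be told apart.

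Gng3, a gamma subunit of neurons, lies on the minus strand of chromosome 19 and overlaps Bscl2, which runs the other way and encodes seipin, a protein of lipid droplet formation. The RefSeq tables of build GRCm38.p6 give 3 annotated Bscl2 starts, lying upstream and downstream of the Gng3 start. The nearest upstream start has 81 bases between it and the Gng3 start, so that both genes can be read outwards from that stretch. It is shown because the values of Gng3 are set beside those of Bscl2 below. For contrast the same length upstream of the outermost start of Gng7 is shown, the member with the next largest difference. The inner start of Gng7 is not shown, and its window, described below, differs from the outer one. Both are written 5′ to 3′ on the strand of the gamma gene, ending at the base before its start, and capitals mark CpG dinucleotides. The first is chr19:8839247-8839327 and the second chr10:81014926-81015006, both minus strand.
Gng3: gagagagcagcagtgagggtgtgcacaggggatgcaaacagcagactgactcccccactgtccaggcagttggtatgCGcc
Gng7: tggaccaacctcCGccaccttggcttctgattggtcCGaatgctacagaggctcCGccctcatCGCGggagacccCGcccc
The Gng3 stretch holds 1 CpG and the Gng7 stretch 6.

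RefSeq promoter windows, running from 250 bases before to 50 after a start, were found for 9 of the 10 members, 13 windows in all. The Gng3 window held 2 CpG dinucleotides, and 14.1% of all 32851 windows held fewer. The windows of Gng5 and Gng12 lay at the other end, with 52 in Gng5 and 34 and 35 at the 2 starts of Gng12, against a median of 7. One Gng13 window held 34 as well, and the other 6. The windows of Gng4 held 17 and 29. The GC box letters GGGCGG, read on both strands, occurred 5 times in the outer Gng7 window and 4 times in that of Gng5, and not in that of Gng3. Of all windows 35.7% held them. The CCAAT letters occurred 2 times in the outer Gng7 window and once in a Gng4 window, against 37.4% of all windows with at least 1. The inner Gng7 window held neither the GC box nor the CCAAT letters. It held 6 CpG dinucleotides against 20 in the outer one, so the contrast with Gng3 depends on the start taken. None of the 13 windows held TATAAA (13.6% of all windows) or TGACGTCA (1.79% of all windows), and overlapping matches were counted apart. These are letters in a window, and no binding was measured.

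For Gng3 the lowest of the 6 knockout arrays was brighter than the highest of the 6 wild-type arrays. Its log2 intensity was 11.19, 11.20 and 11.20 in KO_male, against 11.01, 11.01 and 10.90 in WT_male. In females it was 11.32, 11.36 and 11.44 in KO_female, against 11.16, 10.91 and 10.94 in WT_female. WT_female replicate 1 was the highest wild-type array and lay just under the lowest knockout array. The mean was 11.28 ± 0.10 in knockout and 10.99 ± 0.10 in wild type (SD, n = 6 each), a log2 difference of 0.30 (SE 0.05) or 1.23-fold. Groups that do not overlap in this comparison were found for 0.55% of all genes, and since this contrast chose Gng3, nothing is read from the share. The groups ran from KO_female (11.37 ± 0.06) over KO_male (11.20 ± 0.01) to the wild type, where WT_female and WT_male (10.97 ± 0.06) lay within their spread (SD, n = 3 each).

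**Figure D1:**
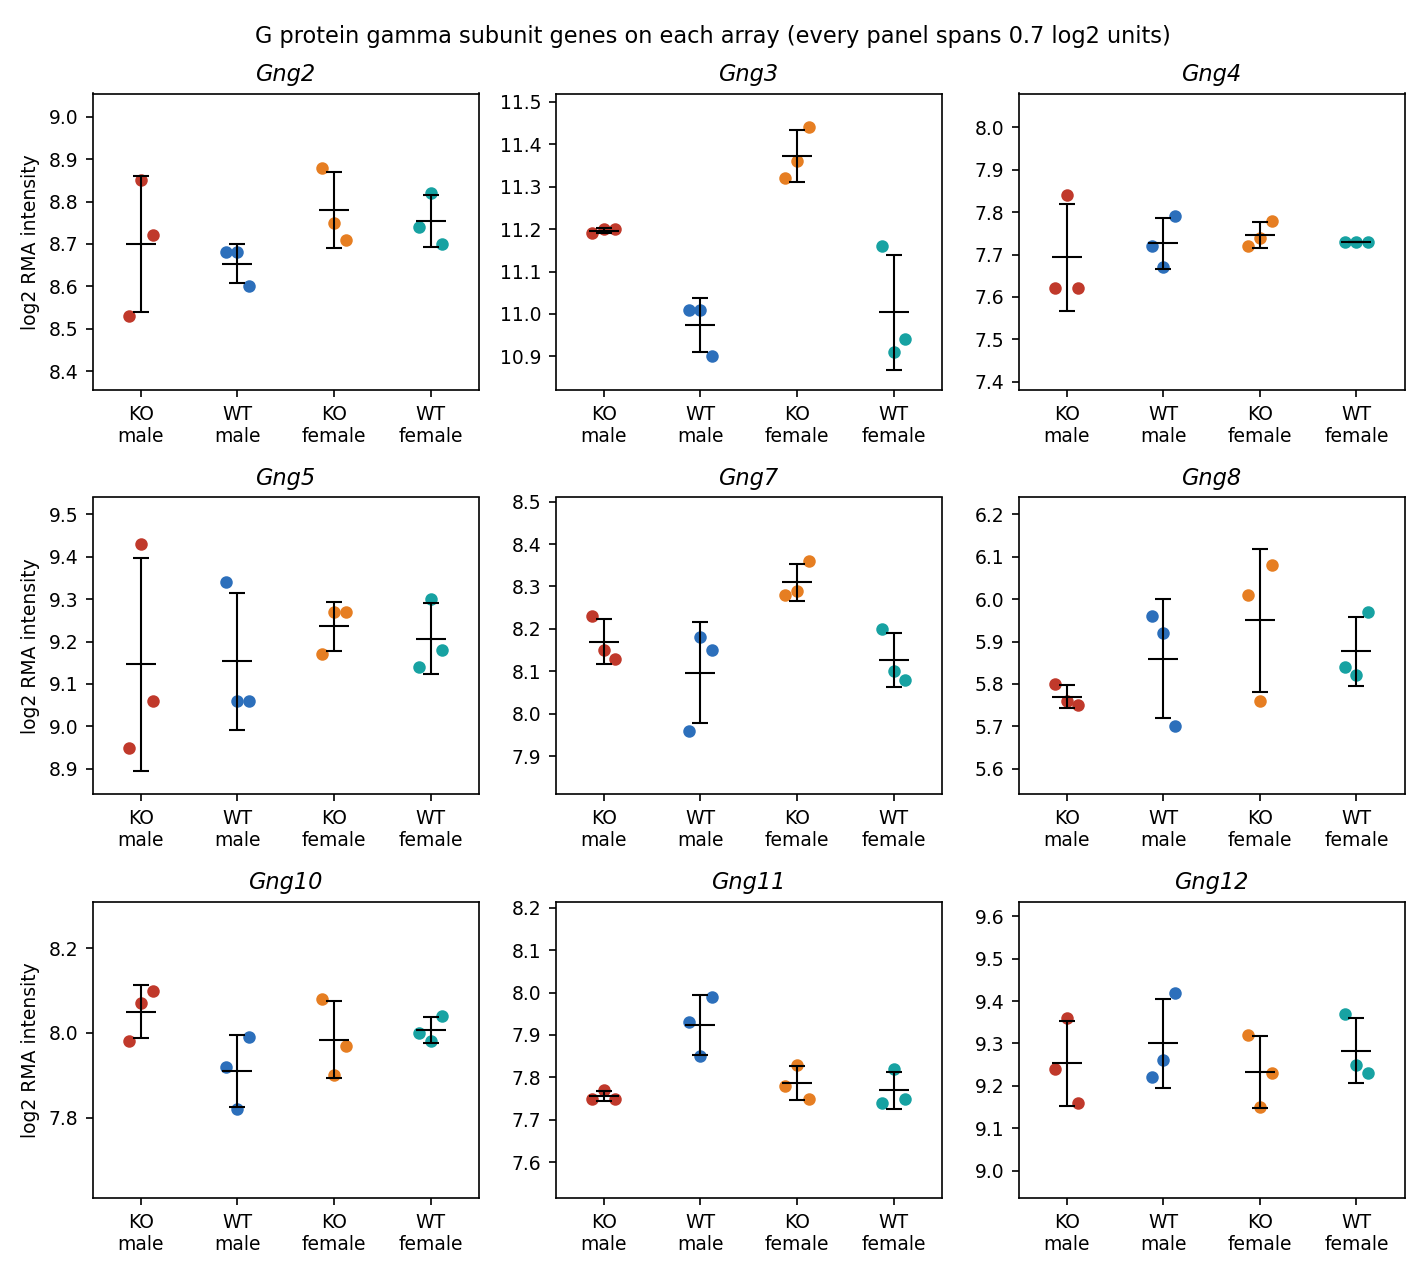
Log2 RMA intensity of the 9 gamma subunit genes on each array, with 1 point per mouse and the mean ± SD of each group of 3 as bars; every panel spans 0.7 log2 units. In the Gng3 panel all 6 knockout points lie above all 6 wild-type points, which holds for no other gene shown. Gng3 was chosen for this contrast, so nothing is read from that.

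The size of the Gng3 difference was 0.22 (SE 0.07) in males and 0.37 (SE 0.07) in females. The difference between those effects, which the choice of Gng3 did not use, was 0.14 (SE 0.10) and did not pass the test (limma adjusted p = 0.999). Females were 0.10 (SE 0.05) higher than males over both genotypes, with 11.19 ± 0.22 in females and 11.08 ± 0.13 in males (SD, n = 6 each), and this did not pass either (adjusted p = 0.66). Leaving out each array in turn gave genotype differences of 0.27 to 0.33.

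Cell type markers were set beside Gng3 as the mean, over the markers of a list, of each array's log2 value minus that marker's mean over all arrays. The 13 granule cell markers ranged from -0.07 to 0.07 in knockout arrays and from -0.04 to 0.03 in wild-type arrays. The 8 Purkinje cell markers with a row ranged from -0.07 to 0.13 in knockout and -0.05 to 0.01 in wild type. For both lists the knockout and wild-type ranges overlapped, and whether cell makeup bears on Gng3 was not tested. The 14 oligodendrocyte markers were all lower on average in knockout. Of them 1 was past the adjusted limma threshold, against 0.0135% of all genes lower. At an unadjusted p under 0.05 there were 12 lower, against 4.87% of all genes. Their level ranged from -0.29 to 0.16 in knockout and from 0.01 to 0.22 in wild type. All 16 choroid plexus markers with a row were lower on average in knockout as well, with a median difference of -0.26. Of them 0 were past the limma threshold and 2 had an unadjusted p under 0.05, beside the same shares of all genes. Their level ranged from -0.60 to 0.45 in knockout and from -0.42 to 0.85 in wild type. With the oligodendrocyte level of each array in the fit the Gng3 difference was 0.33 (SE 0.09), and with the choroid plexus level it was 0.28 (SE 0.06).

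The genes around Gng3 have rows of their own, and none of those named here passed the test. Bscl2 was at 10.03 to 10.13 in knockout (median 10.06) and 10.07 to 10.16 in wild type (median 10.11), ranges that overlapped. Its log2 difference was -0.04 (SE 0.04; adjusted p = 0.775). In males alone Bscl2 was at 10.04, 10.08 and 10.03 in KO_male, against 10.10, 10.15 and 10.16 in WT_male. These male groups did not overlap, as for 10.3% of all genes. On the other side Hnrnpul2, an RNA-binding protein of the hnRNP U family, differed by -0.13 (SE 0.06; adjusted p = 0.538). Farther out, Ttc9c differed by 0.10 (SE 0.04; adjusted p = 0.517) and Lrrn4cl by -0.16 (SE 0.05; adjusted p = 0.462). Hnrnpul2, Ttc9c and Lrrn4cl had an unadjusted limma p under 0.05, against 9.26% of all genes, and Bscl2 did not. In males the groups were apart for Lrrn4cl as well, and in females for Ttc9c, as for 14.9% of all genes. Probe positions were not used here, and how far the Gng3 row and the Bscl2 row read the overlap of the genes was not tested.

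**Figure D2:**
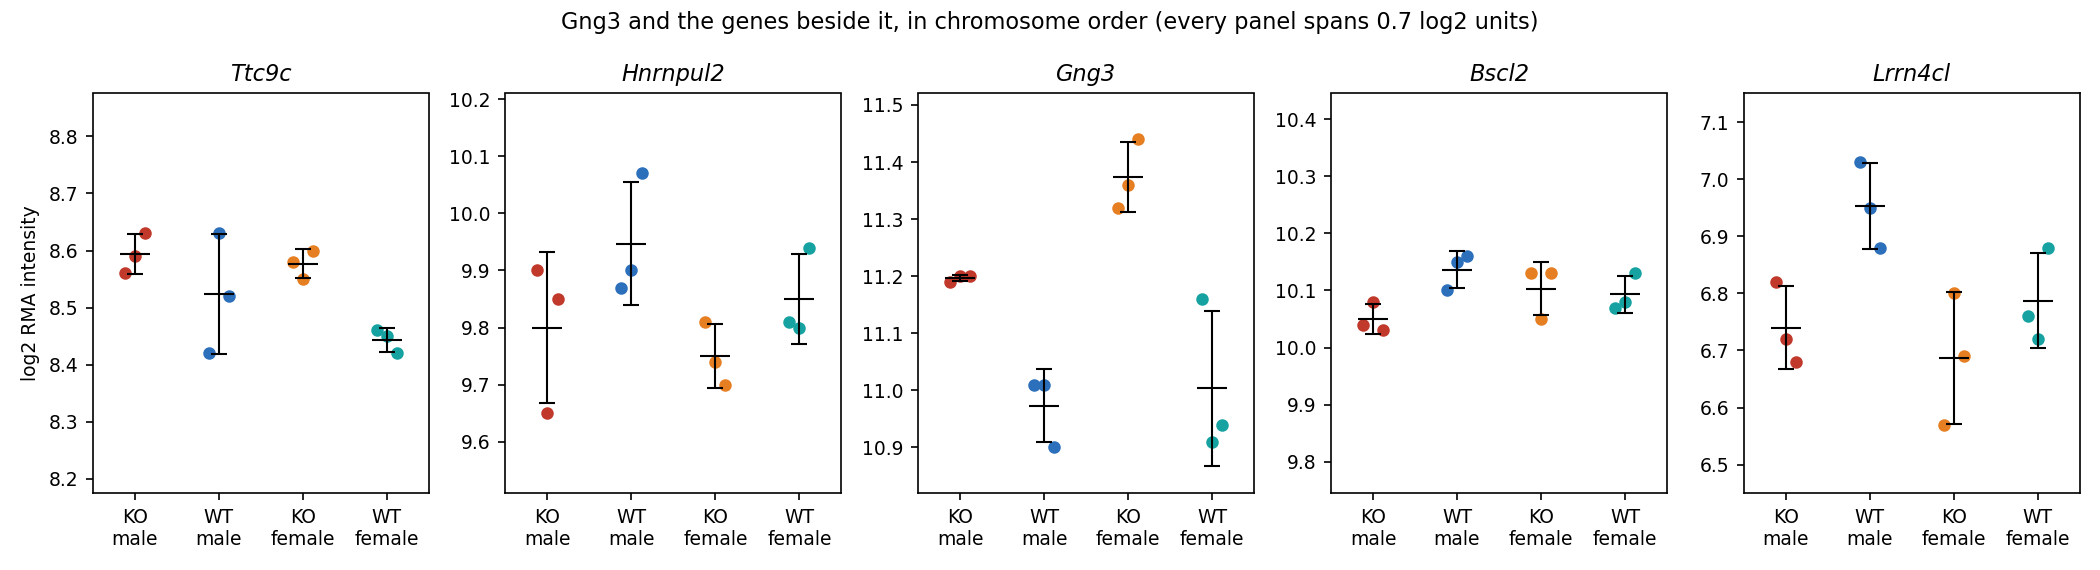
Log2 RMA intensity of Gng3 and of the genes before and after it on chromosome 19, in chromosome order, with 1 point per mouse and the mean ± SD of each group of 3; every panel spans 0.7 log2 units. Over both sexes, knockout and wild-type points are apart for Gng3, chosen for this contrast, and overlap for Bscl2, Hnrnpul2, Ttc9c and Lrrn4cl. Within males they are apart for Bscl2 and Lrrn4cl too, and within females for Ttc9c.

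Of the 8 other members none passed the test for genotype over both sexes with limma, where 0.0225% of all genes passed. At an unadjusted p under 0.05 the count was 1 of 8, Gng7, against 9.26% of all genes. Over these 8, with Gng3 left out, the median difference was 0.00 and 4 were higher, beside a median of -0.00 and 49.6% higher over all genes. Their differences ran from -0.08 in Gng11 to 0.13 in Gng7.

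**Figure D3:**
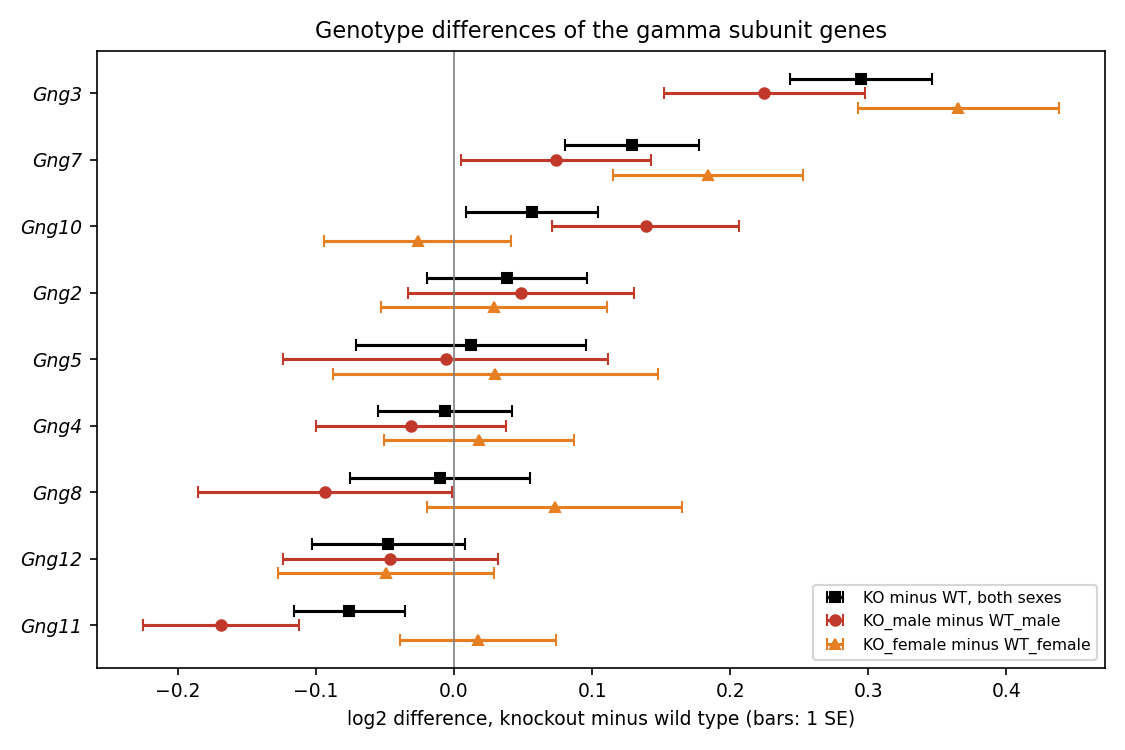
Log2 differences, knockout minus wild type, of the 9 gamma subunit genes over both sexes, in males and in females, with bars of 1 SE. Gng3 stands at 0.30, chosen for this contrast, and the other 8 lie between -0.08 and 0.13 over both sexes.

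Gng7, which pairs with the olfactory-type alpha subunit and adenylyl cyclase in the striatum of mice, was the member with the next largest difference. Its log2 intensity was 8.28, 8.29 and 8.36 in KO_female, against 8.20, 8.10 and 8.08 in WT_female. In males it was 8.23, 8.15 and 8.13 in KO_male, against 7.96, 8.18 and 8.15 in WT_male. The female groups did not overlap, as for 14.9% of all genes, and the male groups did. The group means ran from KO_female (8.31 ± 0.05) over KO_male (8.17 ± 0.05) and WT_female (8.13 ± 0.06) to WT_male (8.10 ± 0.12), and the last 3 lay within their spread (SD, n = 3 each). The difference was 0.18 (SE 0.07; adjusted p = 0.518) in females, 0.07 (SE 0.07; adjusted p = 0.958) in males and 0.13 (SE 0.05; adjusted p = 0.49) over both, and none passed. The difference between the sexes' effects was 0.11 (SE 0.10; adjusted p = 0.999). With the choroid plexus level in the fit the genotype difference was 0.10 (SE 0.05), and with the oligodendrocyte level 0.24 (SE 0.07).

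Gng11, one of the farnesylated gamma subunits and known from endothelial cells, had groups that were apart in males. It was at 7.75, 7.77 and 7.75 in KO_male, against 7.93, 7.85 and 7.99 in WT_male, with no overlap, as for 10.3% of all genes. In females it was at 7.78, 7.83 and 7.75 in KO_female, against 7.74, 7.82 and 7.75 in WT_female, and the groups overlapped. WT_male stood above the 3 other groups, which were within their spread of each other. The difference was -0.17 (SE 0.06; adjusted p = 0.875) in males and 0.02 (SE 0.06; adjusted p = 0.954) in females. Neither passed, nor did the difference between these effects, 0.19 (SE 0.08; adjusted p = 0.998). At an unadjusted p under 0.05 it was the 1 member of 9 in that comparison, against 4.82% of all genes. The 15 endothelial and pericyte markers stood at 0.00, 0.07 and -0.14 in KO_male and at -0.06, 0.03 and 0.00 in WT_male, overlapping ranges. With that level in the fit the Gng11 difference was -0.17 (SE 0.06; adjusted p = 0.883) in males and 0.00 (SE 0.07; adjusted p = 0.992) in females. Gng11 had a Pearson correlation of only 0.22 with that level once group means were taken away. It was 0.49 with the choroid plexus level and 0.65 with the meningeal fibroblast level, which was not put into a fit.

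Gng10, a broadly made subunit, had differences of opposite sign in the sexes, and neither passed. It was at 7.98, 8.07 and 8.10 in KO_male, against 7.92, 7.82 and 7.99 in WT_male, and at 8.08, 7.90 and 7.97 in KO_female, against 8.00, 7.98 and 8.04 in WT_female. Its difference was 0.14 (SE 0.07; adjusted p = 0.918) in males and -0.03 (SE 0.07; adjusted p = 0.942) in females. Both pairs of groups overlapped.

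Gng2, a subunit found across the brain, had means of 8.74 ± 0.12 in knockout and 8.70 ± 0.07 in wild type (SD, n = 6 each). Within KO_male it ranged from 8.53 to 8.85, a wider span than within any of the 3 other groups. Gng12, a widely made subunit that protein kinase C phosphorylates, was at 9.24 ± 0.08 in knockout and 9.29 ± 0.08 in wild type. Its second row, at 5.37 on average, lay under the background level and differed by -0.05 (SE 0.07) over both sexes, against -0.05 (SE 0.06) for the row used. By sex the second row differed by -0.18 (SE 0.11) in males and 0.08 (SE 0.11) in females, against -0.05 (SE 0.08) in each for the row used, and none of these passed. Gng4, a subunit of the brain and endocrine cells, had 7.72 ± 0.09 in knockout and 7.73 ± 0.04 in wild type. KO_male replicate 2, at 7.84, was its highest array while the other KO_male arrays were its lowest, at 7.62.

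Gng5, a broadly made subunit also present in dividing progenitors, varied most among the members, with a pooled SD within groups of 0.16 against 0.05 for Gng11. It ranged from 8.95 to 9.43 in KO_male alone. Its means were 9.19 ± 0.17 in knockout and 9.18 ± 0.12 in wild type (SD, n = 6 each). The 2 other rows named for Gng5 alone differed by -0.08 (SE 0.07) and -0.05 (SE 0.10), against 0.01 (SE 0.08) for the row used. A further row is shared with the pseudogene Gng5-ps, so which copy each row reads is uncertain. KO_male replicate 2, the brightest Gng5 array, stood at 0.31 for choroid plexus markers, against -0.44 and -0.37 in the other KO_male arrays. WT_male replicate 1, the next brightest at 9.34, stood at 0.85, the highest of all 12. KO_female replicate 3, at 9.27 for Gng5, stood at -0.33. With group means taken away, Gng5 had Pearson correlations of 0.79 with the choroid plexus level and -0.89 with the oligodendrocyte level. They were -0.78 with the granule cell level and 0.75 with the Purkinje cell level, and the cause was not tested. Such values were not particular to Gng5. Gng4 had -0.86 with the granule cell level and 0.88 with the Purkinje cell level, and Gng2 had -0.8 with the oligodendrocyte level. For Gng3 these 3 values were weaker, at -0.09, -0.01 and 0.19. With the choroid plexus level in the fit the Gng5 genotype difference was 0.09 (SE 0.06; adjusted p = 0.719). With the oligodendrocyte level in the fit it had the other sign, at -0.29 (SE 0.08; adjusted p = 0.513).

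Gng8, known from olfactory and vomeronasal neurons and the habenula, was the 1 dim member. Dim here means a mean at or under 6.47, the level that 95% of the 1394 olfactory and vomeronasal receptor genes, taken as silent in this tissue, did not exceed. Gng8 ranged from 5.70 to 6.08 over the 12 arrays, so its differences are not read as changes of its RNA. The retinal subunits were low too. Gngt1 was at 3.49 ± 0.06 in knockout and 3.43 ± 0.10 in wild type, dim, and Gngt2 at 6.51 ± 0.09 in knockout and 6.49 ± 0.19 in wild type, close to the limit. Brightness depends on the probes, so these values do not rank the RNA of different genes.

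Within males and within females alone, none of the 8 members other than Gng3 passed with limma, where 0.0225% of all genes passed in each. At an unadjusted p under 0.05 there was 1 of 8 in males (Gng11, against 5.42% of all genes) and 1 of 8 in females (Gng7, against 8.49%). For sex none of the 9 passed, where 0.0361% of all genes did, and none had an unadjusted p under 0.05, against 7.93%. The sex differences, females minus males, ran from -0.06 in Gng11 to 0.10 in Gng3. For the difference between the sexes' genotype effects none of the 9 and none of all genes passed.

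The partners of the gamma subunits were measured on the same arrays. None of the beta, alpha, effector, regulator or prenylation genes passed the test for genotype over both sexes in either direction. Of the 4 beta subunits with a row, 1 was higher and 3 lower, with a median of -0.03. Gnb1, which pairs with most gamma subunits, was at 12.70 ± 0.02 in knockout and 12.71 ± 0.06 in wild type (SD, n = 6 each). Gnb5, the partner of the RGS7 family, differed by -0.05 (SE 0.06; adjusted p = 0.828), Gnb4 by -0.06 (SE 0.06; adjusted p = 0.766) and the dim gene Gnb3 by 0.10 (SE 0.08; adjusted p = 0.714).

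Of the 16 alpha subunits 7 were higher and 9 lower, with a median of -0.01, and 5 were dim. Those with the smallest p were Gnat3, a dim gene known as the taste cell subunit gustducin, at 0.30 (SE 0.09; adjusted p = 0.35), Gna13 at -0.19 (SE 0.06; adjusted p = 0.411), and Gnai3, an inhibitor of adenylyl cyclase, at -0.12 (SE 0.04; adjusted p = 0.467). Gna13 stood at 9.02 ± 0.12 in knockout and 9.21 ± 0.07 in wild type. At an unadjusted p under 0.05 there were 1 higher and 3 lower of 16, against 4.38% higher and 4.87% lower of all genes.

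Among 22 effectors 10 were higher and 12 lower, with a median of -0.01. The adenylyl cyclase Adcy4 was at 6.74 ± 0.14 in knockout and 6.52 ± 0.10 in wild type, a difference of 0.22 (SE 0.06; adjusted p = 0.327). By sex it differed by 0.08 (SE 0.08) in males and 0.36 (SE 0.08) in females, and neither passed. The G protein-gated potassium channel genes Kcnj9 (0.10, SE 0.06; adjusted p = 0.635) and Kcnj5 (-0.13, SE 0.10; adjusted p = 0.717) followed. Adcy4 and Kcnj5, with means of 6.63 and 6.59 over all arrays, lay close to the dim limit of 6.47. Among 27 regulators 13 were higher and 14 lower, with a median of -0.03. The first by p were Rgs17 (-0.20, SE 0.06; adjusted p = 0.377), Rgs6 (-0.14, SE 0.06; adjusted p = 0.524) and Rgs9 (-0.17, SE 0.08; adjusted p = 0.527), which speed the return of alpha subunits to the inactive state. Among 6 genes of the prenylation pathway that attaches and finishes the lipid of gamma subunits, 5 were higher and 1 lower. Fnta, the alpha chain shared by farnesyl and geranylgeranyl transferase, differed by -0.08 (SE 0.04; adjusted p = 0.572). Rce1, the protease of that pathway, differed by 0.07 (SE 0.06; adjusted p = 0.716) and the methyltransferase Icmt by 0.03 (SE 0.05; adjusted p = 0.868).

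**Figure D4:**
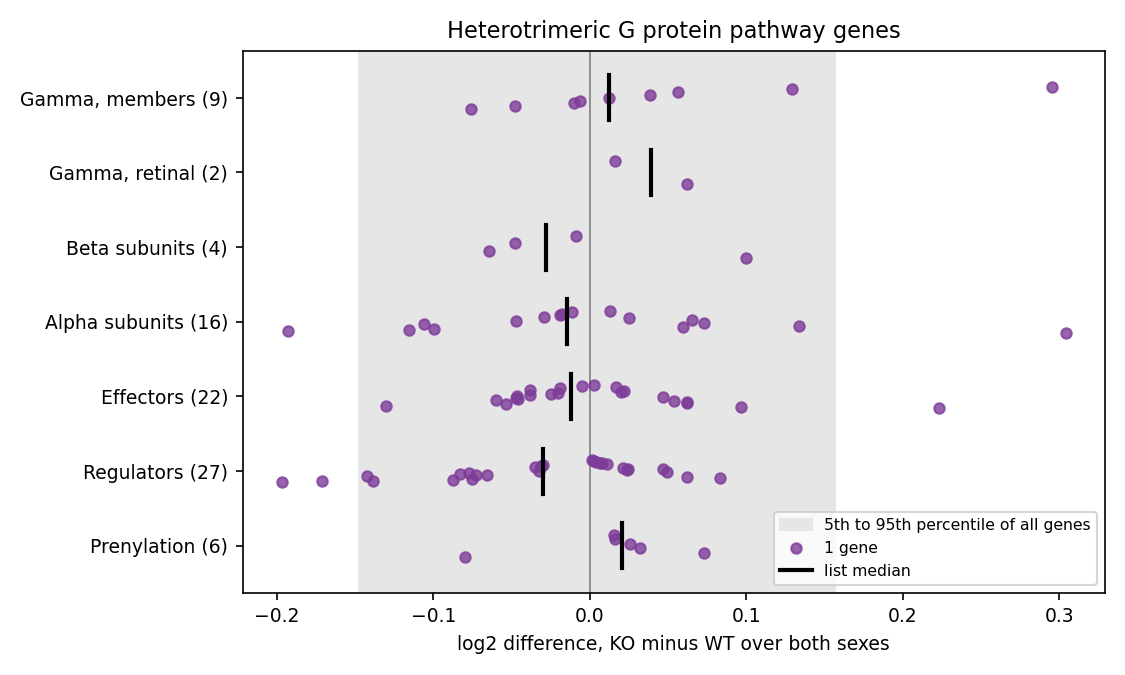
Log2 differences, knockout minus wild type over both sexes, of the gamma subunits and of the other G protein pathway genes, with 1 point per gene, a bar at each list's median and a grey band from the 5th to the 95th percentile of all genes (-0.15 to 0.16). Gng3 at 0.30, chosen for this contrast, and the dim gene Gnat3, also at 0.30, lie farthest to the right. Gnat3 averaged 4.63 in log2 intensity, under the background level.

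Genes whose array-to-array pattern was most like that of Gng3 were sought among the 11090 genes above the median brightness, after each group mean was taken away, over the 12 arrays. As a description, the closest were Siah3 (likeness 0.94 on a scale that ends at 1), Tmsb4x, an actin-binding protein (0.92), Fn3k, fructosamine-3-kinase (0.91), Npepl1, an aminopeptidase (0.91), and Wrnip1, a partner of the Werner helicase (0.90). By ranks the same 5 gave 0.95, 0.84, 0.92, 0.80 and 0.88. The measure is the correlation coefficient of Pearson, and by ranks that of Spearman. Their genotype differences lay between -0.03 and 0.10 and none passed. For the other members above background the closest genes were Csf1r and Lyplal1 for Gng2, Traf4 and Prkd3 for Gng4, and Sulf1 and Smo for Gng5. They were Crtc1 and Dctn4 for Gng7, Serpinh1 and Spag5 for Gng11, Dr1 and Bag1 for Gng12, and DQ267101 and Gm14204 for Gng10, all between 0.90 and 0.96. Such values are high in part because each is the largest of 11090, over arrays whose tissue makeup all genes share.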

How the data were processed

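Arrays were grouped by source name, and replicate numbers follow the order of the records. Per the labels, the authors made RMA values at core-exon level in Affymetrix Expression Console; Transcriptome Analysis Console 3.0 is also named in the submitters' processing notes. The deposited intensity values are linear (array medians 96.5 to 98.7), so log2 was computed from them first, with no pseudocount; the planned test had assumed log2 values. The genome build of the array is not given in the sources used here. Of 41345 rows, 23521 name 1 gene symbol, 1814 several and 16010 none; the brightest single-symbol row per gene gave 22180 genes, with none removed for brightness. The test was limma (version 3.58.1, R 4.3.3) with a mean per group, a spread shared over the 12 arrays and eBayes, two-sided, with Benjamini-Hochberg adjustment over all 22180 genes called at 0.05. Every genotype difference is knockout minus wild type, and every sex difference females minus males. The labels describe separate mice, and the number of arrays limits the precision. The test was tried on simulated data.

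The members and lists were chosen with earlier results of these data known. The genes named are all members, the genes beside Gng3, the 3 genes with the smallest genotype p of each G protein list, and the genes most like each member; Gnb1, Ttc9c and Lrrn4cl fall outside that rule and were named after their values were seen. Alternatives changed the variance moderation, brightness filter, row choice, normalization, pseudocount (16), array weights, covariates and arrays used.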

Additional observations from a re-analysis of the deposited data

How the results depend on the processing

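Over 26 alternatives, 12 of them leaving out 1 array, the count of called members stayed at 0 in each comparison that could be made (Gng3 left out of the genotype counts), and no member difference other than the untested Gng3 genotype differences had an adjusted p under 0.266 for genotype over both sexes. The additive fit gives no value within a sex or for the interaction, and Gng8 was not among genes above the median brightness. The Gng3 difference lay between 0.27 and 0.33. The median difference of the other 8 members, 0.00, lay between -0.06 and 0.04. With Gng3, whose genotype difference chose the family, it lay between -0.03 and 0.06. The count of genes called for genotype, 5 of 22180, was 18 with an intensity trend, 14 over genes above the median brightness, 3 with the choroid plexus covariate, 2 with the oligodendrocyte covariate, 3 with additive terms, and 3 to 8 without 1 array. Of 1112 recomputed member differences, 75 turned sign, none larger than 0.07 to begin with, and 19 moved by more than the SD within groups. With the oligodendrocyte level as covariate, the genotype differences were -0.13 in Gng2, -0.09 in Gng4, -0.29 in Gng5 and 0.24 in Gng7; the cause was not tested. With the Gng12 row of the largest spread, which is dim, the difference between the sexes' effects was 0.26, against -0.00. No paired analysis was possible because the labels give no replicate numbers shared between groups.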
